A study of Mus musculus with 2 samples.

Results

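The genes described here are the Wnt ligands, their receptors and their antagonists in the tunica muscularis of the jejunum, that is, in the smooth muscle layers of the small intestine. They were taken by gene symbol as the Wnt, Frizzled, Sfrp, Dkk, Rspo and Lgr families together with *Lrp5*, *Lrp6*, *Frzb*, *Wif1*, *Axin1*, *Axin2*, *Ctnnb1*, *Apc*, *Tcf7*, *Lef1*, *Tcf7l1*, *Tcf7l2*, *Znrf3* and *Rnf43*. Of the 18159 gene symbols with an mRNA value, 54 belong to this group. The study compared *Dnmt1*-WT with *Dnmt1*-KO mice on a C57BL/6 background at 15 days of age, and each genotype was represented by 1 mRNA library. In *Dnmt1*-KO mice the maintenance DNA methyltransferase *Dnmt1* was deleted between loxP sites by a Cre-eGFP transgene under the control of the *Myh11* promoter, which is active in smooth muscle cells, so that other cells of the muscle wall keep the gene. According to the study, *Dnmt1*-WT mice carry the Cre-eGFP transgene as well. The labels of both libraries give the same strain, which combines the *Myh11*-Cre-eGFP transgene with floxed *Dnmt1*, and the description field of both names the knockout. The libraries were therefore assigned by title and by genotype label. Mice of both sexes contributed to each genotype, and the methods state pooling for the DNA samples only.

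In the Wnt pathway a secreted Wnt protein binds a Frizzled receptor, and together with the co-receptors LRP5 or LRP6 this stops a cytoplasmic complex of APC and the axins from destroying beta-catenin, which then acts in the nucleus with factors of the TCF and LEF family. Other Wnt proteins signal through Frizzled or ROR receptors without beta-catenin and organise cell shape and movement. Secreted Frizzled-related proteins and WIF1 bind Wnt proteins outside the cell, Dickkopf proteins bind the LRP co-receptors, and R-spondins bind LGR receptors and so relieve the removal of Frizzled receptors by the ubiquitin ligases ZNRF3 and RNF43. In the intestine, mesenchymal and muscle layers are known sources of Wnt and R-spondin proteins for the crypt epithelium.

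All values below are FPKM, fragment numbers divided by transcript length and by the mapped fragments of the library, so that levels can be compared between genes. With 1 library for each genotype no difference can be set against a spread between replicates, none was tested, and the order of genes by level or by ratio carries no error. Read numbers per gene are not part of the table, and the mapped read totals that the study lists were not used here, so that values are given without counting error. *Dnmt1* itself was at 11.6 FPKM in *Dnmt1*-WT and 7.58 FPKM in *Dnmt1*-KO, a ratio of 0.655. The tissue label was checked on 9 smooth muscle genes, all of which were at 18.2 FPKM or more in both libraries. All 9 were lower in *Dnmt1*-KO, 3 of them (*Myh11*, *Smtn* and *Lmod1*) with a ratio of 0.5 or less. Of all genes at 1 FPKM or more in a library, 50.8% were lower and 3.67% had such a ratio. RNA of the gut epithelium was present as well. The 7 enterocyte genes examined, 6 of them higher and 1 lower in *Dnmt1*-KO, summed to 470 FPKM in *Dnmt1*-WT and 1024 FPKM in *Dnmt1*-KO. The 9 smooth muscle genes summed to 16784 and 12142 FPKM. In such a whole tissue fewer cells of a type and less RNA per cell cannot be told apart.

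Most of the pathway, like most of the whole table, was present in the muscle wall. Most of the pathway genes at 1 FPKM or more were slightly lower in *Dnmt1*-KO. At 1 FPKM or more there were 36 of the 54 genes in *Dnmt1*-WT and 37 in *Dnmt1*-KO. Ratios, always of the *Dnmt1*-KO to the *Dnmt1*-WT value, were read for genes above 0 in both libraries and at 1 FPKM or more in at least 1. These limits were met by 37 of the 54 genes and by 13769 of the 18159 symbols of the whole table. The ratios were below 1 for 25 of the 37 genes, or 67.6%, and for 50.8% of all genes. The R-spondin *Rspo3*, the R-spondin receptor *Lgr4* and the Frizzled receptor *Fzd8* had ratios of 0.5 or less and are called halved here, which makes 3 of 37, or 8.11%, against 3.67% of all genes. Only *Wnt4* was at least doubled, 1 of 37 or 2.70%, against 9.14% of all genes. The median log2 ratio was -0.22 for the 37 genes and -0.01 for all genes. With no limit on low values the median of the group was -0.08, and with a pseudocount of 0.1 or of 1 it was -0.02.

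Lower values were found mainly among the more abundant members. Of the 30 genes at 5 FPKM or more in a library, 24 were lower in *Dnmt1*-KO, or 80.0%, against 52.9% of the 9878 genes of the table at that level. The higher value decides entry, so that *Znrf3* was counted through its *Dnmt1*-WT value alone and *Rspo2* through its *Dnmt1*-KO value alone. Of the 7 members whose higher value lay between 1 and 5 FPKM, 6 were higher, while 54.1% of all genes chosen in this way were higher. *Wnt4*, 1 of the 6, was under 1 FPKM in *Dnmt1*-WT and entered through its *Dnmt1*-KO value alone. Most differences were small. The ratio lay within 1.5-fold of 1 for 27 of the 37 genes, or 73.0%, which is close to the 72.3% of all genes.

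**Figure D1:**
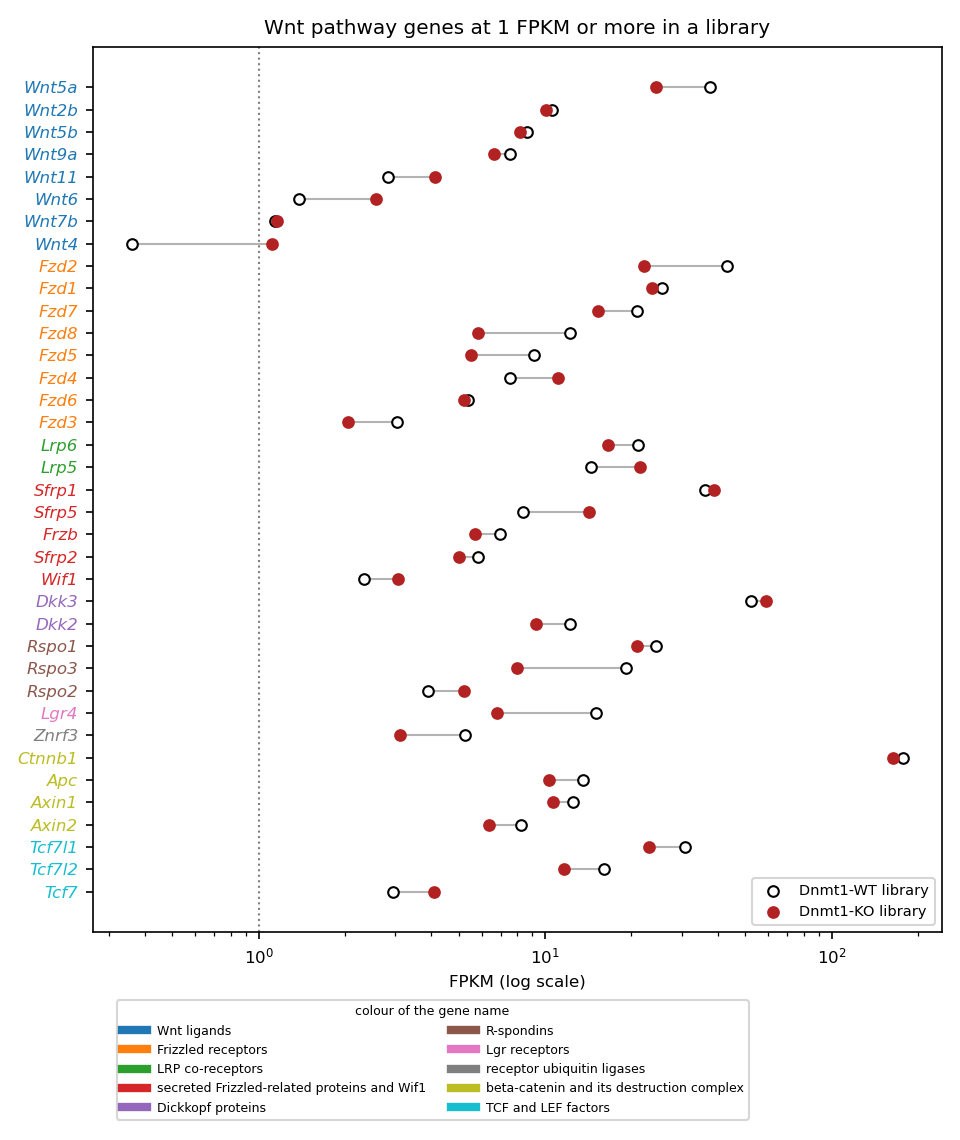
FPKM of the 37 genes at 1 FPKM or more in at least 1 library, on a log axis, with an open circle for the *Dnmt1*-WT library, a filled circle for the *Dnmt1*-KO library, and gene names coloured by role; the dotted line marks 1 FPKM. *Ctnnb1* stands above all others at 178 and 164 FPKM, and most filled circles lie to the left of the open ones.

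The lowest ratios of the 37 genes were those of an R-spondin and its receptor. *Rspo3*, a secreted amplifier of Wnt signals, was at 19.2 FPKM in *Dnmt1*-WT and 7.97 FPKM in *Dnmt1*-KO, a ratio of 0.416. *Lgr4*, the R-spondin receptor with the broadest expression, was at 15.1 FPKM and 6.78 FPKM, a ratio of 0.450. By level among the 18159 symbols, *Rspo3* went from rank 3857 to rank 7453 and *Lgr4* from rank 4746 to rank 8135, so that both moved far down the order of all genes. *Rspo1*, another R-spondin, was the most abundant of the family with 24.4 FPKM in *Dnmt1*-WT and 20.9 FPKM in *Dnmt1*-KO. *Rspo2* was at 3.89 and 5.21 FPKM, the reverse direction. The share of *Rspo3* in the summed R-spondin FPKM went from 40.4% to 23.1%, while that of *Rspo1* went from 51.3% to 60.8%. The sum itself was 47.5 FPKM in *Dnmt1*-WT and 34.5 FPKM in *Dnmt1*-KO, a ratio of 0.725. *Znrf3*, the membrane ubiquitin ligase that R-spondins and LGR receptors neutralise and that is itself switched on by beta-catenin, was at 5.26 FPKM and 3.11 FPKM, a ratio of 0.591. The related ligase *Rnf43* was at 0.18 and 0.23 FPKM and *Lgr5*, the receptor that marks crypt base stem cells of the epithelium, at 0.18 FPKM in both libraries, so that *Lgr4* and *Znrf3* were the main receptor and ligase mRNAs of this tissue.

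*Lgr4* lies on the plus strand of chromosome 2, at chr2:109917647-110014257 of GRCm38, and *Rspo3* on the minus strand of chromosome 10, at chr10:29452416-29535867. The window around the start of *Lgr4*, from 250 bases before it to 50 bases after it, is shown as that of a halved gene, since CpG sites are the substrate of DNMT1. Its last 50 bases lie in the first exon. *Lgr4* is the only halved gene with a window, and *Rspo3*, *Fzd8*, *Fzd2* and *Wnt5a* are not among the promoter results. It is printed in lower case with every CpG in capitals (RefSeq, GRCm38.p6, chr2:109917397-109917696, plus strand):
Lgr4: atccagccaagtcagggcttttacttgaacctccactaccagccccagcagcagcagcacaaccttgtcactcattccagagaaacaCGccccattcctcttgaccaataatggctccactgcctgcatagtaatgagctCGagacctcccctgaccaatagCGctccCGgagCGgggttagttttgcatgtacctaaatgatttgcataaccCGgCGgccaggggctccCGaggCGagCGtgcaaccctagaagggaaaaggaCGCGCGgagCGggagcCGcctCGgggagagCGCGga
It holds 18 CpG sites, with CpG at 0.71 of the number expected from its C and G content. It also holds the letters CCAATAATGG, which match the CArG box, the binding motif of the smooth muscle factor SRF, and begin at position -146 from the start. A match to the CArG box occurs in 3 of the 45 windows of the group, those of *Lgr4*, *Lef1* and *Tcf7*, or 6.67%, and in 1.39% of all 16659 windows of genes in the table. *Tcf7* was higher in *Dnmt1*-KO, at 2.94 and 4.10 FPKM, and *Lef1* was at 0.04 and 0.14 FPKM. The match is a description of letters and SRF binding was not measured here.

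Among the Frizzled receptors, the 7-pass membrane proteins that bind Wnt, 7 of the 8 genes at 1 FPKM or more were lower in *Dnmt1*-KO, against 50.8% of all genes, and of these *Fzd6* turned to slightly higher under upper quartile scaling or centring on transcript length. *Fzd2*, the most abundant of them in *Dnmt1*-WT, was at 43.1 FPKM there and at 22.2 FPKM in *Dnmt1*-KO, a ratio of 0.514 that lies just outside the limit of 0.5. *Fzd8* was at 12.2 FPKM and 5.81 FPKM, a ratio of 0.475 and just inside it, a halving that was lost after centring on transcript length and with a pseudocount of 1. *Fzd5* was at 9.18 FPKM and 5.52 FPKM, a ratio of 0.601. These receptors had the lowest ratios of the family. *Fzd3*, which acts mainly in planar polarity and axon guidance, was at 3.03 and 2.05 FPKM, and *Fzd7* at 20.9 and 15.3 FPKM. Differences were smaller for *Fzd1*, at 25.6 and 23.5 FPKM, and for *Fzd6*, at 5.39 and 5.21 FPKM. Thus *Fzd1* and *Fzd2* exchanged places at the top of the family, and the share of *Fzd2* in the summed Frizzled FPKM went from 33.8% to 24.4%. *Fzd4*, the receptor for Norrin in vessel growth, was the only Frizzled gene at 1 FPKM or more that was higher, with 7.56 FPKM in *Dnmt1*-WT and 11.1 FPKM in *Dnmt1*-KO, a ratio of 1.46. All 6 endothelial genes examined (*Pecam1*, *Cdh5*, *Kdr*, *Tek*, *Cldn5* and *Vwf*) were at least doubled in the same comparison, against 9.14% of all genes. The summed level of these 6 went from 44.8 to 126 FPKM. The part of endothelial cells in the value of *Fzd4* was not tested. The family as a whole summed to 127 FPKM in *Dnmt1*-WT and 91.0 FPKM in *Dnmt1*-KO, a ratio of 0.713.

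**Figure D2:**
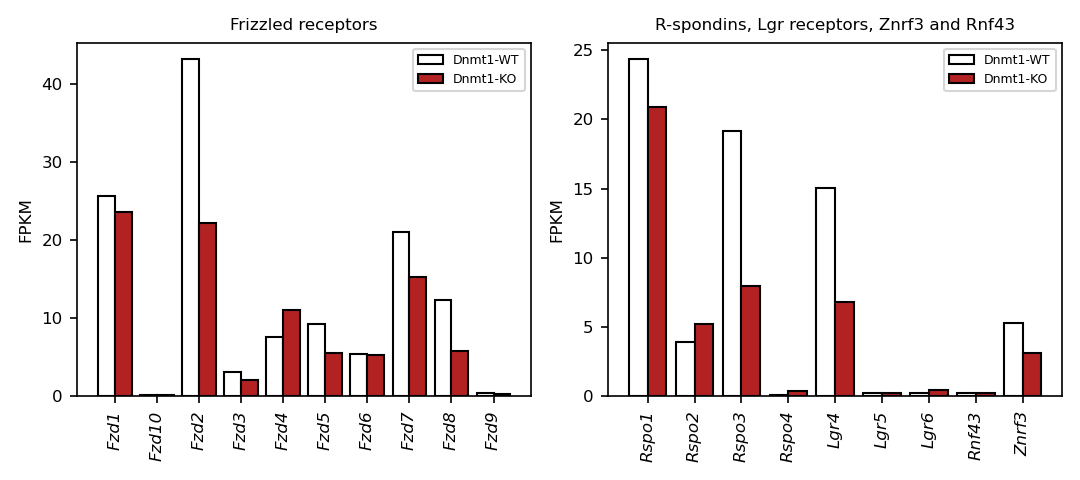
FPKM of all Frizzled receptors (left) and of the R-spondins, Lgr receptors and receptor ubiquitin ligases (right) on linear axes that start at 0, with 1 white bar for the *Dnmt1*-WT library and 1 red bar for the *Dnmt1*-KO library per gene and no error bars since each genotype has 1 library. Among the genes plotted at 1 FPKM or more, *Rspo3*, *Lgr4*, *Fzd8* and *Fzd2* have the lowest ratios, 0.416 to 0.514, and *Fzd4* and *Rspo2* are higher in *Dnmt1*-KO.

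The promoter windows of the Frizzled genes with opposite directions are shown for their CpG content, with CpG in capitals as above. *Fzd5* lies on the minus strand of chromosome 1 and its window is chr1:64737701-64738000. *Fzd4* lies on the plus strand of chromosome 7 and its window is chr7:89404116-89404415 (both RefSeq, GRCm38.p6).
Fzd5: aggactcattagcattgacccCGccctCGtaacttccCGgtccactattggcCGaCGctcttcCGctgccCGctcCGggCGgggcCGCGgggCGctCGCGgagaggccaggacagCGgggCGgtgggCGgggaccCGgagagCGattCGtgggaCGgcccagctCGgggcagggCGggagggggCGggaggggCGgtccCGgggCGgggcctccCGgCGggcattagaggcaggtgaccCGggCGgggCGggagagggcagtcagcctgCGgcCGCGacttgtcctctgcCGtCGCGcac
Fzd4: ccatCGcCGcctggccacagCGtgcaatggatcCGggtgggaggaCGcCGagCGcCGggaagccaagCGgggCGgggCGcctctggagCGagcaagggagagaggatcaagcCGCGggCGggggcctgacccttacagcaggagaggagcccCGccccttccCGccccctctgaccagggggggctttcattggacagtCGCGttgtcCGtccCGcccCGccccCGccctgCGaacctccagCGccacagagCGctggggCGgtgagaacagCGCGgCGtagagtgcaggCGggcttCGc
The windows hold 38 and 32 CpG sites, with CpG at 0.91 and 0.81 of the expected number. Both are thus rich in CpG. Whether CpG content goes with the direction of the ratio was not tested.

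The ligands were led by *Wnt5a*, which acts mostly without beta-catenin and is needed for the elongation of the gut. It was at 37.5 FPKM in *Dnmt1*-WT and 24.4 FPKM in *Dnmt1*-KO, a ratio of 0.651, and its share of the summed ligand FPKM went from 53.5% to 41.1%. *Wnt5a* was the highest ligand in both libraries and had the lowest ratio of the 8 at 1 FPKM or more. *Wnt2b*, a mesenchymal ligand of the gut that acts through beta-catenin, was at 10.6 and 10.1 FPKM. *Wnt5b*, the close relative of *Wnt5a*, was at 8.63 and 8.15 FPKM, and *Wnt9a* at 7.53 and 6.63 FPKM. These 3 ligands thus differed little between the libraries. The less abundant ligands were higher in *Dnmt1*-KO, with *Wnt11*, a ligand of polarity signalling, at 2.83 and 4.13 FPKM and *Wnt6* at 1.38 and 2.56 FPKM. *Wnt7b* was at 1.14 and 1.16 FPKM, which turned to slightly lower when scaled by the FPKM sum. *Wnt4*, a ligand best known from kidney and gonad development, was at 0.36 FPKM in *Dnmt1*-WT and 1.11 FPKM in *Dnmt1*-KO. Its ratio of 3.08 was the highest of the 37 genes, but its *Dnmt1*-WT value is low and the ratio drops below 2 when 1 is added to each FPKM. In sum the 16 listed ligands came to 70.2 FPKM in *Dnmt1*-WT and 59.4 FPKM in *Dnmt1*-KO, a ratio of 0.847.

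*Wnt4* lies on the plus strand of chromosome 4, at chr4:137277489-137299726. The RefSeq start used for its window lies inside that GENCODE gene, downstream of its first base. The window is shown as that of the only gene at least doubled (RefSeq, GRCm38.p6, chr4:137277385-137277684, plus strand, CpG in capitals).
Wnt4: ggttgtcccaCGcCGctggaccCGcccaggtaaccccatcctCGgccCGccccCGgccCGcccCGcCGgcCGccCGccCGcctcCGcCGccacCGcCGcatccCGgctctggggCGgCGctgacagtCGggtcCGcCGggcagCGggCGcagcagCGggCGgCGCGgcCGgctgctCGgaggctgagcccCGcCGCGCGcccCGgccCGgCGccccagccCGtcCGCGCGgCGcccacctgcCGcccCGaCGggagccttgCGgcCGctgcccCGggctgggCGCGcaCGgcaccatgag
With 51 CpG sites and a GC content of 84.3% it is among the windows of the group with the most CpG, and CpG stands at 0.98 of the expected number.

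The secreted antagonists were about as abundant in *Dnmt1*-KO as in *Dnmt1*-WT, and none of those at 1 FPKM or more was halved or doubled. Of all genes 3.67% were halved and 9.14% at least doubled. *Sfrp1*, the leading secreted Frizzled-related protein gene, was at 36.1 FPKM in *Dnmt1*-WT and 38.9 FPKM in *Dnmt1*-KO. *Sfrp5* had the highest ratio of the 5 secreted Frizzled-related protein and *Wif1* genes at 1 FPKM or more, 1.70, with 8.39 FPKM and 14.2 FPKM. *Frzb* was at 6.93 and 5.70 FPKM, *Sfrp2* at 5.82 and 5.01 FPKM, and *Wif1*, a Wnt-binding protein of a different fold, at 2.34 and 3.07 FPKM. Thus 3 of the 5 were higher and 2 lower, where 50.8% of all genes were lower. The sum of the class, with *Sfrp4* included, was 59.7 FPKM in *Dnmt1*-WT and 67.8 FPKM in *Dnmt1*-KO, a ratio of 1.14. The sums of ligands, Frizzled receptors and R-spondins were all lower in *Dnmt1*-KO. Single genes weigh heavily in 2 of them. *Wnt5a* was at 37.5 and 24.4 FPKM within ligand sums of 70.2 and 59.4 FPKM. *Rspo3* was at 19.2 and 7.97 FPKM within R-spondin sums of 47.5 and 34.5 FPKM. Of the 8 ligands at 1 FPKM or more, however, 4 were higher and 4 lower, with a median log2 ratio of -0.02. Among the Dickkopf genes *Dkk3*, a divergent member that does not act as a classical LRP antagonist, was the most abundant, at 52.1 and 58.9 FPKM. *Dkk2*, which binds LRP6, was at 12.2 and 9.26 FPKM, a ratio of 0.760.

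The co-receptors went in opposite directions. *Lrp5* was at 14.4 FPKM in *Dnmt1*-WT and 21.4 FPKM in *Dnmt1*-KO, a ratio of 1.48, and *Lrp6* at 21.1 and 16.5 FPKM, a ratio of 0.782. Their order was therefore reversed, with *Lrp6* the higher in *Dnmt1*-WT and *Lrp5* in *Dnmt1*-KO, and their sum differed little, 35.5 and 37.9 FPKM.

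Beta-catenin, its destruction complex and most of its nuclear partners were lower by modest amounts. *Ctnnb1*, which encodes beta-catenin and is also a component of cell junctions, was the most abundant gene of the group, at 178 FPKM in *Dnmt1*-WT and 164 FPKM in *Dnmt1*-KO, a ratio of 0.919. *Apc*, the scaffold of the destruction complex, was at 13.6 and 10.3 FPKM, and *Axin1*, its limiting component, at 12.5 and 10.7 FPKM. *Axin2*, a feedback inhibitor that beta-catenin switches on in most tissues, was at 8.23 and 6.36 FPKM, a ratio of 0.773. All 4 genes of this class were lower, none halved, where 50.8% of all genes were lower and 3.67% halved. Of the TCF and LEF factors, *Tcf7l1*, which mostly represses, was at 30.9 and 23.0 FPKM and *Tcf7l2*, the main intestinal factor, at 16.1 and 11.6 FPKM. *Tcf7*, which is abundant in T cells, was higher, at 2.94 and 4.10 FPKM, a ratio of 1.39. The T cell gene *Cd3e* was listed at 0 in *Dnmt1*-WT and at 0.62 FPKM in *Dnmt1*-KO, and all 5 leukocyte genes at 1 FPKM or more, out of 6, were higher, with a summed level of 22.3 and 73.8 FPKM for the 6. Of the 5, *Ptprc* and *Cd79a* reached 1 FPKM in *Dnmt1*-KO alone. Whether these cells contribute to the value of *Tcf7* was not tested.

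**Figure D3:**
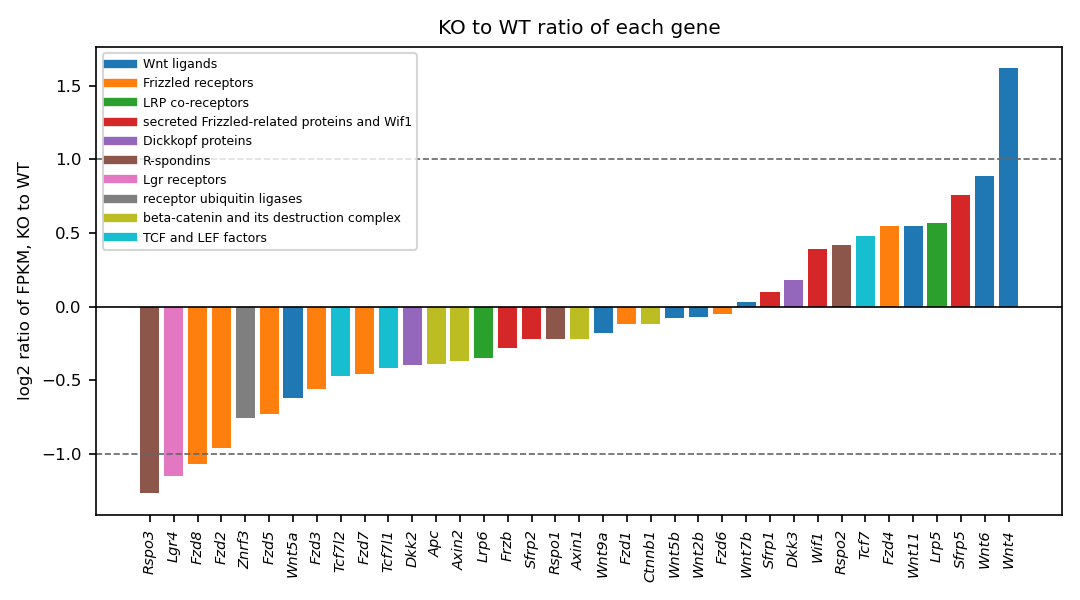
Log2 ratio of FPKM, *Dnmt1*-KO to *Dnmt1*-WT, for the same 37 genes in order, coloured by role; the dashed lines mark a doubling and a halving. *Rspo3*, *Lgr4* and *Fzd8* pass the lower line, *Wnt4* passes the upper one, and *Fzd2* stops just short at -0.96.

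The remaining 17 genes stayed under 1 FPKM in both libraries. They are *Sfrp4*, *Wnt2*, *Lgr6*, *Rspo4*, *Fzd9*, *Rnf43*, *Wnt16*, *Lgr5*, *Lef1*, *Wnt10b*, *Fzd10*, *Wnt8a*, *Wnt3*, *Wnt9b*, *Dkk1*, *Wnt10a* and *Wnt8b*. Their values reached 0.33 FPKM in *Dnmt1*-WT and 0.94 FPKM in *Dnmt1*-KO, and the lowest value above 0 in either library was 0.03 FPKM. Of these genes 13 were higher in *Dnmt1*-KO, 1 was lower, 1 was equal and 2 were at 0 in both. Of the 3720 genes of the table under 1 FPKM in both libraries and above 0 in at least 1, 60.0% were higher in *Dnmt1*-KO. Genes at 0 in both, as 2 of the 17 are, are not part of that share. The highest *Dnmt1*-KO value was that of *Sfrp4*, another secreted Frizzled-related protein, at 0.06 FPKM in *Dnmt1*-WT and 0.94 FPKM in *Dnmt1*-KO, followed by *Wnt2*, at 0.09 and 0.55 FPKM. *Wnt10b*, *Wnt8a*, *Wnt9b* and *Dkk1* were listed at 0 in *Dnmt1*-WT and between 0.06 and 0.13 FPKM in *Dnmt1*-KO, and no gene showed the reverse. No ratio is given for these genes, since both values lie under the limit of 1 FPKM.

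Other genes of the pathway, from lists drawn up by function, were mostly lower as well, and few passed a fold of 2. All 3 genes of Wnt secretion and release were lower before any rescaling, where 50.8% of all genes were lower. *Wls*, the carrier that brings Wnt proteins to the cell surface, was at 51.5 and 39.1 FPKM. *Porcn*, which attaches their lipid, was nearly equal at 20.8 and 20.7 FPKM. Its log2 ratio of -0.01 is smaller in size than the shift of 0.03 brought by median centring. *Notum*, the extracellular enzyme that removes the lipid, was low at 1.42 and 0.74 FPKM and thus reached 1 FPKM in *Dnmt1*-WT alone. Among the 4 alternative receptors, *Ror2*, a receptor of WNT5A, was at 25.6 and 15.1 FPKM, a ratio of 0.588, close to that of *Wnt5a* itself. *Ryk* and *Ror1* were also lower, at 43.6 and 36.1 FPKM and at 7.31 and 6.27 FPKM, whereas *Ptk7* was higher, at 12.9 and 19.8 FPKM. Of the 12 planar cell polarity genes 8 were lower and 2 were halved, where 50.8% of all genes were lower and 3.67% halved. These were *Daam1*, a formin activated by Dishevelled, at 22.4 and 10.6 FPKM, and *Prickle2*, a core polarity protein, at 18.6 and 8.70 FPKM. Of 14 cytoplasmic transducers such as the Dishevelled and GSK3 genes 10 were lower, and of 12 nuclear partners of beta-catenin 8 were lower, none of either list past a fold of 2. The median log2 ratios of the 5 lists in this order were -0.40, -0.25, -0.26, -0.13 and -0.23, against -0.01 over all genes. Of 7 further inhibitors, 4 were at 1 FPKM or more and had a median of 0.07, with *Kremen1* at 9.09 and 9.55 FPKM, *Apcdd1* at 5.48 and 6.58 FPKM, *Sostdc1* at 6.95 and 6.39 FPKM and *Tpbg* at a ratio of 1.05.

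Known targets of beta-catenin outside the group did not go one way. Of 12 genes 10 were at 1 FPKM or more, and of these 8 were higher and 2 lower, with a median log2 ratio of 0.45, where 50.8% of all genes were lower and 9.14% at least doubled. Of the 8, *Cdx2* and *Sox9* entered through their *Dnmt1*-KO values alone, and the 2 genes under 1 FPKM in both libraries, *Sp5* and *Ascl2*, were both lower. The lower ones at 1 FPKM or more were the most abundant, the Dishevelled-binding inhibitors *Nkd1*, at 79.2 and 44.8 FPKM, and *Nkd2*, at 55.3 and 38.9 FPKM. The 3 that were at least doubled are transcription factors of the gut epithelium, *Cdx2* (0.57 and 2.23 FPKM), *Cdx1* (1.05 and 2.20 FPKM) and *Sox9* (0.33 and 1.01 FPKM). Of the 9 genes listed for epithelium, 8 were more abundant in *Dnmt1*-KO, and the list summed to 192 and 384 FPKM. *Krt19*, at 96.1 and 188 FPKM, weighs heavily in both sums and is also counted among the mesothelial genes below. The list is thus not specific to the gut epithelium. The part of epithelium in the values of *Cdx2*, *Cdx1* and *Sox9* was not tested. Beside the epithelial factors, the cell cycle gene *Ccnd1* was at 11.0 and 20.5 FPKM and *Myc* at 7.67 and 9.40 FPKM.

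The number of transcript variants found per gene, a second readout in the table, was equal for most genes of this group, as for most of the whole table. Of the 37 genes 29 had the same number in both libraries, 5 had fewer in *Dnmt1*-KO and 3 had more. Across all genes at that level 14.5% had fewer and 13.1% had more. The largest losses were those of *Tcf7l2*, with 10 variants in *Dnmt1*-WT and 8 in *Dnmt1*-KO, and *Znrf3*, with 4 and 2. *Wnt11* had 2 and 4. The variants are not named in the table. *Rspo1* and *Wnt7b* went from 2 to 1 and *Axin2* from 4 to 3, while *Wnt5b* and *Rspo2* went from 2 to 3.

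The start sites of these genes are rich in CpG. Promoter windows of the length given above were found for 35 of the 54 genes, 45 windows in all since 7 genes have more than 1 start, and some windows of 1 gene overlap. They hold between 3 and 58 CpG sites with a median of 24, against 17 for all genes of the table. CpG was at 0.6 of the expected number or more in 32 of the 45 windows, or 71.1%, against 57.7% of all windows. The window of *Wnt9a* holds the most, 58. For the genes at 1 FPKM or more the median was 30 CpG sites in 28 windows, and for those below it was 18 in 17 windows. All genes of the table showed this division as well, with medians of 20 and 6. The letters CTTTGAA or CTTTGAT, a short form of the TCF and LEF motif, occur on either strand in 3 windows, 6.67%, and in 6.58% of all windows. These 3 windows are those of *Wnt11*, *Wnt5b* and *Dkk1*. CpG methylation itself was not analysed here.

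Transcript length moved with the ratio across the whole table. In 10 equal bins of length the median log2 ratio went from 0.28 in the bin of the shortest transcripts, with a median of 1035 bases, to -0.24 in the bin of the longest, with a median of 8328 bases. The 37 genes had a median length of 3705 bases, against 3398 for all genes. Centring each bin at 0 moved the median of the 37 genes from -0.22 to -0.16 and *Fzd8* from -1.07 to -0.89, which is no longer a halving, while *Rspo3* and *Lgr4* were at -1.29 and -1.06. Among others, *Wnt5a* moved from -0.62 to -0.38, *Fzd3* from -0.56 to -0.32, *Apc* from -0.39 to -0.15 and *Lrp6* from -0.35 to -0.11, all still lower in *Dnmt1*-KO.

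**Figure D4:**
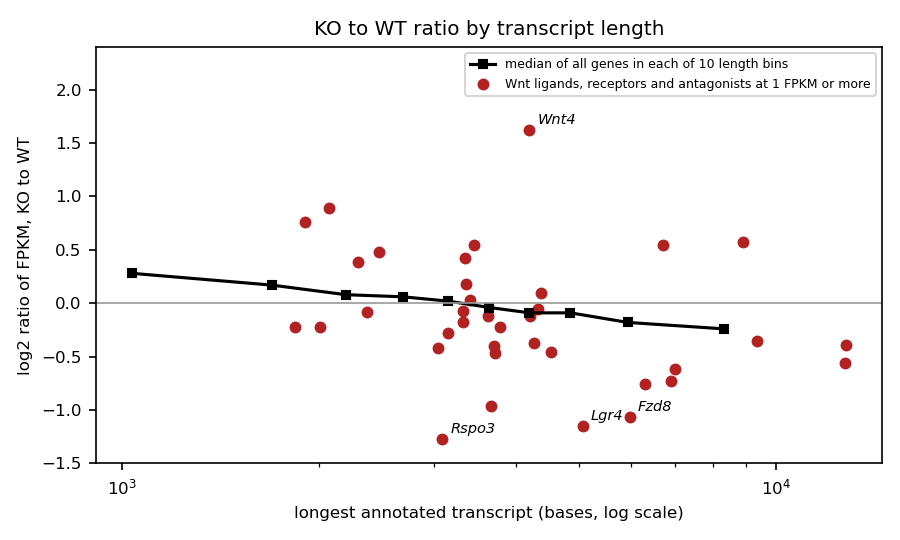
Log2 ratio of FPKM, *Dnmt1*-KO to *Dnmt1*-WT, against the length of the longest annotated transcript (log axis) for the 37 genes, with the median of all genes in each of 10 length bins as a black line. The line descends from 0.28 to -0.24, and *Rspo3*, *Lgr4* and *Fzd8* lie well below it.

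Several cell type lists had medians farther from 0 than the Wnt genes. Over all genes 9.14% were at least doubled and 50.8% were lower. Beside the endothelial, leukocyte and epithelial genes given above, all 6 adipocyte genes were at least doubled. Their summed level was 110 FPKM in *Dnmt1*-WT and 1204 FPKM in *Dnmt1*-KO, although *Adipoq*, *Retn* and *Plin1* reached 1 FPKM in that library alone. Also at least doubled were the 5 Paneth cell genes at 1 FPKM or more, out of 7, with a median log2 ratio of 3.33. Of 7 enterocyte genes 6 were higher and *Sis*, sucrase-isomaltase, was lower at 1.93 and 0.51 FPKM, and the 6 listed macrophage genes were all higher, with sums of 112 and 403 FPKM. Of the cell types known to make Wnt and R-spondin proteins in the gut wall, fibroblasts had 6 of 8 genes higher, among them *Pi16*, which reached 1 FPKM in *Dnmt1*-KO alone, with *Col1a1* at 700.4 and 1518 FPKM, while *Pdgfra* was at 69.0 and 40.7 FPKM, a ratio of 0.591. For interstitial cells of Cajal all 4 genes at 1 FPKM or more were lower, with a median log2 ratio of -0.36, and for smooth muscle the median over 9 genes was -0.43. Subepithelial telocyte genes, which share *Pdgfra* with the fibroblast list, had a median of -0.45 over 4 genes, 3 of them lower and 1 higher. The defining factor of telocytes, *Foxl1*, was listed at 0 in *Dnmt1*-WT and at 0.18 FPKM in *Dnmt1*-KO. Mesothelial genes, which share *Krt19* with the epithelial list, had a median of 0.01, enteric neuron genes 0.29 and enteric glia genes 0.13. Of 3 crypt base genes *Olfm4* was at 1.02 and 4.55 FPKM, *Smoc2* at 174.7 and 101.7 FPKM, and *Ascl2* at 0.19 and 0.03 FPKM. The part of these cell types in the Wnt pathway values was not tested.

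**Figure D5:**
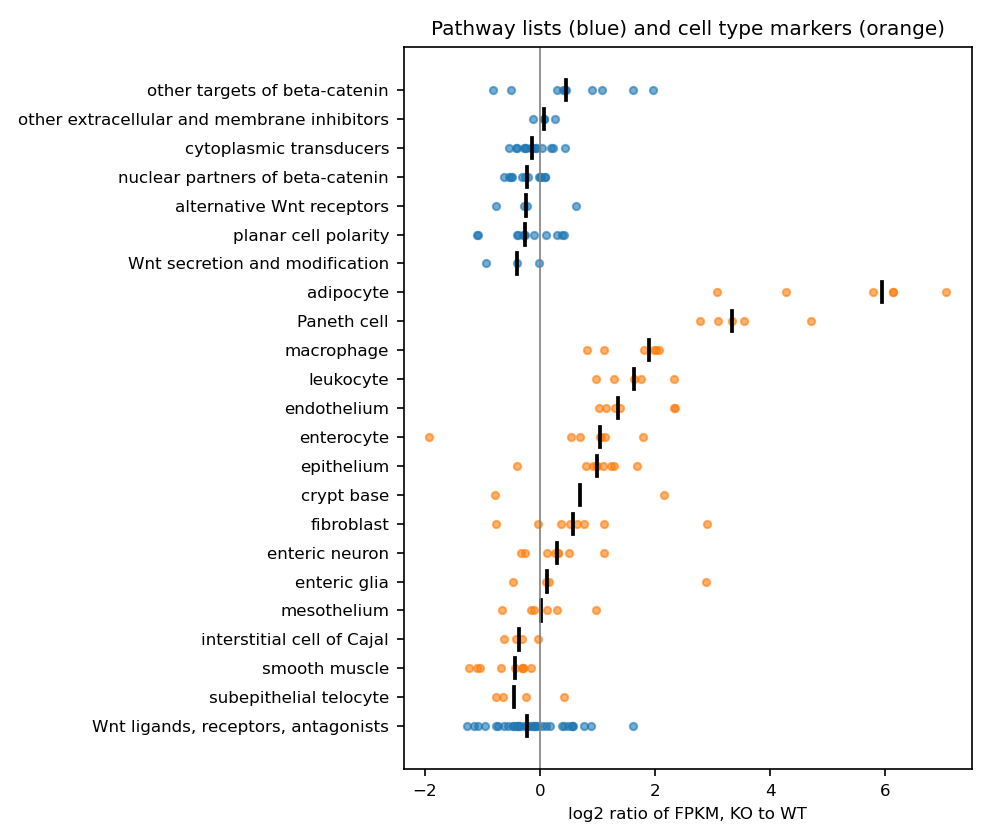
Log2 ratio of FPKM, *Dnmt1*-KO to *Dnmt1*-WT, for each gene at 1 FPKM or more of the Wnt group and of the other pathway lists (blue points) and of the cell type lists (orange points), with the median of each list as a black bar. The medians of the pathway lists lie between -0.40 and 0.45, that of the smooth muscle list lies at -0.43, and those of the adipocyte, Paneth cell, macrophage, leukocyte and endothelial lists lie at 1.35 or more.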

How the data were processed

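Total RNA was extracted with the mirVana kit and TruSeq RNA libraries were made, 1 per genotype. Per the submitters' processing notes, TopHat 1.4.1, Cufflinks 2.0.2 and mm10, the UCSC name of GRCm38, were used. The annotation is not given in the sources used here. The authors deposited FPKM per gene symbol, a count of transcript variants per library, and a ratio of their own that was not used. The FPKM, with sums of 429698 in *Dnmt1*-WT and 460845 in *Dnmt1*-KO, were not rescaled. Strand is not stated, and an annotated exon of another gene, on either strand, lies over exons of 10 of the 37 genes read, *Rspo3*, *Wnt5a* and *Fzd5* among them, whose reads cannot be told apart.

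A ratio was formed for genes above 0 FPKM in both libraries and at 1 FPKM or more in 1, and counted at 2 or more and at 0.5 or less. The code for counting was run on simulated data with changes well past a fold of 2 in genes well above 1 FPKM. That run does not bear on genes near either limit. The genes and lists were chosen with earlier results of these data known. All genes of the group are named. Genes of other lists could be named only if past a fold of 2 or in lists of up to 8 genes, and only some of these are named, as examples picked with their values in view. *Dnmt1*, *Ccnd1*, *Myc*, *Nkd1*, *Nkd2* and *Sp5* fall outside this rule and were added in the same way. Positions and transcript lengths came from GENCODE M21, which held 94.7% of the symbols and all 54 genes, and promoter windows from RefSeq (GRCm38.p6). Scaling, limits on low values, pseudocounts and transcript length were varied. Python 3.11.15, numpy 2.4.6, pandas 2.3.3 and matplotlib 3.10.9 were used.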

Additional observations from a re-analysis of the deposited data

How the results depend on the processing

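With 1 library per genotype no replicate could be left out. No paired analysis was possible because each genotype has 1 library. The median log2 ratio of the group, -0.22, was -0.32 after division by the FPKM sum, -0.19 after median centring, -0.15 after upper quartile scaling, -0.16 after centring on transcript length and -0.25 at 5 FPKM or more in a library. It was -0.08 with no limit on low values and -0.02 with a pseudocount of 0.1 or of 1, settings that add genes under 1 FPKM. Genes at least doubled, 1 in the main count, numbered 7 with no limit on low values and 7 with a pseudocount of 0.1, and 0 at 5 FPKM or more and with a pseudocount of 1. Genes at most halved numbered between 2 and 4 under every alternative. *Rspo3* and *Lgr4* were halved under all of these alternatives, *Fzd8* was not under transcript length centring (-0.89) or a pseudocount of 1 (-0.96), and *Fzd2* was halved after division by the FPKM sum (-1.06). *Wnt4* was at 0.63 with a pseudocount of 1. *Fzd6* and *Wnt7b*, both within 0.05 of 0, were the only genes whose direction turned. Genes detected numbered 48 and 52 above 0 FPKM and 29 in each library at 5 FPKM. No counting error was computed for values near 0.03 FPKM or for any other.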
